A study of Mus musculus with 7 samples.

Results

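The regenerating (Reg) gene family was described across isolated pancreatic islets of mice, with 6 members, Reg1, Reg2, Reg3a, Reg3b, Reg3d and Reg3g, chosen by their symbols among the 55487 gene rows of the count table. The rule used the symbols alone, but the family was chosen with earlier results of these data known. The series compared islets of 4 control mice and of 3 Traf6 KO mice, in which Traf6 was knocked out specifically in beta cells. Traf6 encodes a ubiquitin ligase of innate immune signalling. All mice of both groups had been fed a high-fat diet (60%) for 15 weeks, and isolated islets recovered in culture medium for 24 hours before RNA was taken. The labels name the genotypes only as Control and Traf6 KO, without the Cre driver, the age, the sex or the litter. Each library was 1 column of the table and was taken as 1 mouse. If they do not come from separate animals, p-values reflect only the spread between samples, which may be technical.

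Reg genes encode small secreted proteins of the C-type lectin fold. In the pancreas they are known as products of acinar cells, the cells that make digestive enzymes, and several of them rise in acinar cells in pancreatitis and in islets under stress. Reg1 and Reg2 encode the lithostathines, which are secreted into pancreatic juice. The Reg3 genes include Reg3b, the pancreatitis-associated protein, and Reg3g, a lectin that binds peptidoglycan and kills Gram-positive bacteria in the gut. Reg3d is the mouse relative of INGAP, the islet neogenesis-associated protein. Cytokines that signal through STAT3, among them interleukin-6 and interleukin-22, are known inducers of Reg3 genes.

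All 6 genes lie in 1 cluster of 98.2 kb on chromosome 6 of GRCm38 and are annotated as protein-coding. From the lowest coordinate upward, Reg3b (ENSMUSG00000071356) spans 78370657 to 78373466 on the plus strand, Reg3d (ENSMUSG00000068341) 78375874 to 78378865 on the minus strand and Reg3a (ENSMUSG00000079516) 78380709 to 78383827 on the plus strand. They are followed by Reg2 (ENSMUSG00000023140), at 78395623 to 78408106 on the plus strand, Reg1 (ENSMUSG00000059654), at 78422711 to 78428667 on the plus strand, and Reg3g (ENSMUSG00000030017), at 78466269 to 78468872 on the minus strand. The principal transcript of each gene has 6 exons. Coding sequences of Reg1 and Reg2 were 82.6% identical over their aligned bases. Among the other pairs identity ran from 62.8% (Reg2 and Reg3g) to 76.5% (Reg3a and Reg3b). The longest run of bases shared by any pair of principal transcripts was 35 (Reg3b and Reg3g), and no pair shared a run of 50, which is short against reads of 151 bases. Within 500 kb of the cluster the annotation holds 1 other protein-coding gene, Ctnna2, a catenin of cell adhesion. Its level stayed between 4.80 and 7.505 CPM in all 7 libraries. CPM here is the count per 1e6 counts of the library total scaled by its TMM factor. The family member outside the cluster, Reg4 on chromosome 3, had 0 counts in every library. A count of 0 allows up to 3 counts per library, for counting error only.

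The bases before the start sites of 4 members are shown. As described below, Reg1 and Reg3d rose with exocrine content more steeply than Reg2 and Reg3b, which were alike. Whether the letters bear on these levels was not tested. The sequences come from RefSeq on GRCm38.p6, which had a window for each of the 6 members, and bases inside annotated exons were left out. Capitals mark the E-box CACCTG, the TC-box core TTCCCA, both parts of a spaced E-box and TC-box (CANNTG, any 6 bases, then TTCCCA) and the STAT palindrome TTCNNNGAA, searched on both strands. The windows shown are chr6:78425733-78425929 (plus strand) for Reg1, chr6:78404905-78405154 (plus strand) for Reg2, chr6:78378866-78379115 (minus strand) for Reg3d and chr6:78370707-78370860 (plus strand) for Reg3b.
Reg1: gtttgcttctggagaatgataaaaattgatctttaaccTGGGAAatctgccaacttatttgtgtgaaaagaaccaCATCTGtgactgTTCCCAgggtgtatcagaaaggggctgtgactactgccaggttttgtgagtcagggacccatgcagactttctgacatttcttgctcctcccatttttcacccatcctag
Reg2: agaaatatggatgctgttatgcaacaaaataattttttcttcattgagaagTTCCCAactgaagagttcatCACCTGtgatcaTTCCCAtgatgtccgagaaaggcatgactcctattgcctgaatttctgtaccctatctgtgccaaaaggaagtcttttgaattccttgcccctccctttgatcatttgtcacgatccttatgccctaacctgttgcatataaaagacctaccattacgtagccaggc
Reg3d: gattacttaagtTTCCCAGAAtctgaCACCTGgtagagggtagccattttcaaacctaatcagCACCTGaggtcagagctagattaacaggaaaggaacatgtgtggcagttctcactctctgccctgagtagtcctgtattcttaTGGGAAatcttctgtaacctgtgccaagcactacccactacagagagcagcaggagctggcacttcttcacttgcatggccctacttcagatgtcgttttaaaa
Reg3b: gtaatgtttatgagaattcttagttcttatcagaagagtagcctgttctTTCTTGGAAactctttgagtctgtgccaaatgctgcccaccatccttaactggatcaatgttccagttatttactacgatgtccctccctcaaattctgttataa

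The E-box and TC-box are the parts of the known site of PTF1, an acinar transcription factor complex that includes PTF1A and RBPJL. In windows of 250 bases before to 50 bases after the start site, the spaced form with 6 bases between both parts was found in Reg1 (first base at -175) and Reg2 (first base at -179) and in no Reg3 gene. It stood in 33 of 32851 windows of all genes (0.101%). The spacing was chosen after the sequences were seen, and with 5 or 7 bases between the parts 0 of 6 members matched, against 0.122% and 0.140% of all windows. CACCTG alone was found in Reg2, Reg3a, Reg3b and Reg3d and in 20.2% of all windows. In Reg3b its first base is at -214, outside the stretch printed above, which starts at -178. TTCCCA, which is also the second part of the spaced form, was found in 5 members, all but Reg3b, and in 25.6% of all windows. The STAT palindrome was found in Reg3b (first base at -129) and in Reg3d (first base at -238, where it overlaps TTCCCA) and in 8.30% of all windows. TATAAA stood close before the start site in Reg1 and Reg2 (both at -30), Reg3b (-29) and Reg3g (-27), and in 13.6% of all windows at any place. In Reg1 it lies within an annotated exon, outside the stretch printed above, which ends at -54. In Reg3b its last base, at -24, is also in an annotated exon and past the printed stretch, which ends at -25. A match describes letters in a window and shows no binding.

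**Figure D1:**
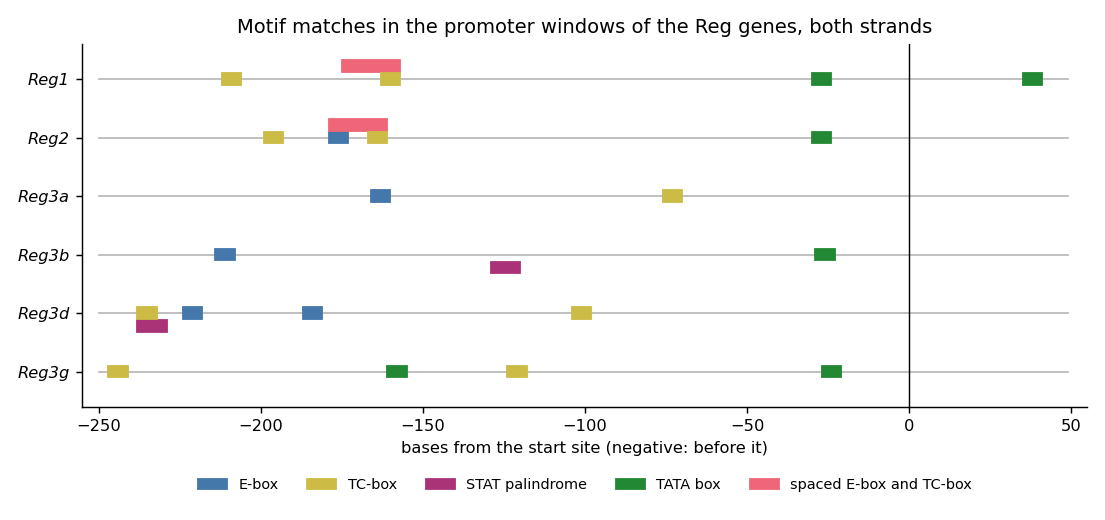
Positions of motif matches on either strand in the RefSeq promoter windows of the 6 Reg genes. The horizontal axis gives bases from the start site, and each block is 1 match, with the spaced form raised and the STAT palindrome lowered. The spaced E-box and TC-box lies only in the windows of Reg1 (-175) and Reg2 (-179).

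Library totals ran from 22104256 to 29917292 counts. Traf6 stood at 17.9, 25.5 and 22.1 CPM across controls 1 to 3, at 12.7 CPM for the library labelled control 4 and at 14.8, 15.4 and 14.5 CPM across Traf6 KO 1 to 3. The library labelled control 4 thus had less Traf6 than any Traf6 KO library, so this gene goes against its label, and directions below keep it with the controls. A count over the whole gene does not show a deleted exon. Markers of the endocrine islet took 23.8% to 28.7% of counts in control and 7.77% to 18.7% in Traf6 KO. The 36 acinar enzyme and zymogen genes, a list that holds no Reg gene, took 20.1%, 0.478% and 0.455% of counts across controls 1 to 3, 3.22% for the library labelled control 4, and 55.9%, 42.7% and 1.61% across Traf6 KO 1 to 3 (exact binomial 95% intervals at most 0.0414 percentage points wide, for counting error only). This percentage is called the acinar share below. In bulk islets, more acinar cells and more acinar RNA per cell cannot be told apart. Xist had 12998 counts in Traf6 KO 3 and 0 to 11 in the other libraries. The labels do not give the sex of any mouse, and sex was not a term in the fits. The sample names carry a letter, S for the library labelled control 4 and for Traf6 KO 3 and Q or R for the rest, whose meaning the labels do not give. Traf6 KO 3 thus differed from the other Traf6 KO libraries in Xist, in letter and in acinar share at once, and these cannot be told apart.

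Reg1 was the most abundant member in every library. It stood at 4648, 72.8 and 77.5 CPM across controls 1 to 3, at 365 CPM for the library labelled control 4 and at 24754, 11595 and 253 CPM across Traf6 KO 1 to 3. Both groups therefore held high and low libraries, and Traf6 KO 3 lay below control 1 and the library labelled control 4. The raw counts behind these levels ran from 2610 (control 2) to 273338 (Traf6 KO 1).

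Reg2, the second lithostathine gene, stood at 279.9 CPM in control 1, 27.3 and 17.2 CPM in controls 2 and 3 and 204 CPM in the library labelled control 4. In Traf6 KO 1 to 3 it stood at 1863, 599 and 128 CPM. Here too Traf6 KO 3 fell inside the range of the controls. Unlike Reg1, whose level in control 1 was far above that in the library labelled control 4, Reg2 was at a similar level in these libraries.

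Among the Reg3 genes Reg3d had the highest group means. It stood at 72.6, 2.34 and 1.49 CPM across controls 1 to 3, 16.6 CPM for the library labelled control 4, and 401, 209 and 8.24 CPM across Traf6 KO 1 to 3. Reg3b stood at 25.1, 5.94 and 1.201 CPM across controls 1 to 3, 20.2 CPM for the library labelled control 4, and 205, 54.7 and 9.05 CPM across Traf6 KO 1 to 3. Reg3a stood at 14.8, 1.56 and 0.850 CPM across controls 1 to 3, 5.83 CPM for the library labelled control 4, and 94.9, 42.9 and 8.88 CPM across Traf6 KO 1 to 3. In each of these genes Traf6 KO 1 was the highest library, control 3 the lowest, and the groups overlapped.

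Reg3g, the bactericidal lectin of the gut, was the least abundant member. Its counts were 51, 12 and 2 across controls 1 to 3, 14 for the library labelled control 4, and 237, 86 and 18 across Traf6 KO 1 to 3. These correspond to at most 1.79 CPM in the controls and to 21.5, 4.64 and 0.584 CPM across Traf6 KO 1 to 3. With so few counts the counting error of Reg3g is the largest of the family.

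**Figure D2:**
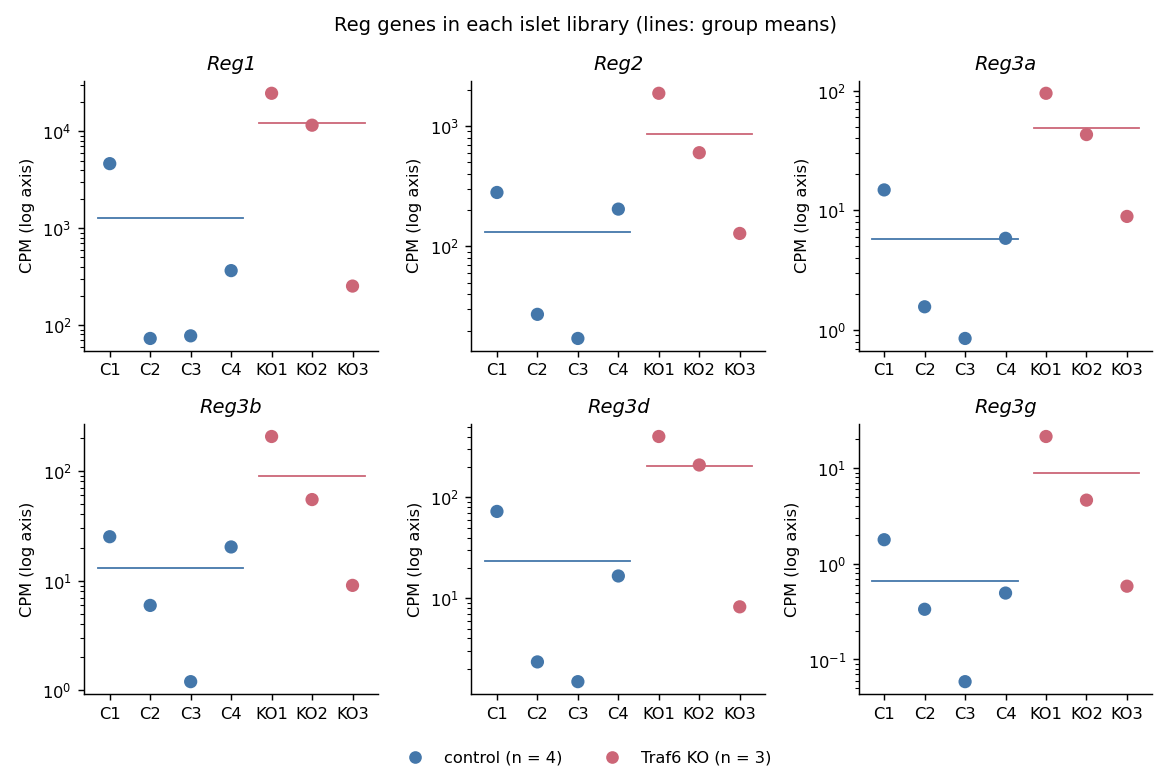
Level of each Reg gene in CPM (log axis) in every library, C1 to C4 for the libraries labelled control and KO1 to KO3 for Traf6 KO, with horizontal lines at the group means. In each panel KO1 is the highest point and KO3 lies within the range of the controls.

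Per kilobase of principal transcript, Reg1 stood at a mean of 1679 CPM per kb in control and 15865 CPM per kb in Traf6 KO, and Reg2 followed at 189 and 1237 CPM per kb. Reg3d came next at 29.7 and 264, then Reg3b at 16.8 and 115, Reg3a at 6.98 and 59.3, and Reg3g at 0.868 and 11.5 CPM per kb. Within a library the first places did not vary: Reg1 was above Reg2, and Reg2 above every Reg3 gene, in 7 of 7 libraries. Reg3b was above Reg3a, and Reg3a above Reg3g, in 7 of 7 as well. Reg3d changed place, being below Reg3b in 3 libraries, control 2, the library labelled control 4 and Traf6 KO 3, and above it in the other 4. It was below Reg3a in Traf6 KO 3 only. Of the 5 neighbouring pairs in this order, Reg3d and Reg3b were the one pair that changed places between libraries. The spread between libraries of 1 gene was wide, with Reg1 at 1291 ± 2242 CPM (SD, n = 4) for control and 12201 ± 12262 CPM (SD, n = 3) for Traf6 KO.

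The first comparison asked which Reg transcripts differed between Traf6 KO and control islets. All 6 members had a fitted fold change above 0, and none passed the test. Log2 fold changes (Traf6 KO over control, ± SE, 4 and 3 libraries) were 3.24 ± 1.74 for Reg1 and 2.71 ± 1.13 for Reg2. Among the Reg3 genes they were 3.09 ± 1.04 for Reg3a, 2.77 ± 1.13 for Reg3b, 3.15 ± 1.48 for Reg3d and 3.72 ± 1.24 for Reg3g. By edgeR's quasi-likelihood test the adjusted p over all 16203 genes tested was 0.394 for Reg1, 0.300 for Reg2, 0.236 for Reg3a, 0.291 for Reg3b, 0.342 for Reg3d and 0.235 for Reg3g. In each of them 1 or more Traf6 KO libraries overlapped the controls. So 0 of 6 members had every Traf6 KO library above every control, and 0 of 6 had every one below, against 5.58% and 8.68% of all genes tested. At an adjusted p under 0.05 edgeR called 0 members, against 0% of all genes tested in either direction, and at an unadjusted p under 0.05 it gave 4 members (Reg2, Reg3a, Reg3b and Reg3g), against 8.81% of all genes in that direction. DESeq2's Wald test called 0 members, against 3.02% of all genes higher and 1.57% lower, and limma-voom called 0 members and 0 genes. The median log2 fold change of the 6 members was 3.12, that of the 35 acinar genes tested was 3.17 and that of all genes was 0.01.

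These fold changes moved with single libraries. Without control 1, the one control with a high acinar share, Reg1 was at 6.20 and Reg2 at 3.43. Without Traf6 KO 1 they were at 2.23 and 1.49, and Reg3b was at 1.31. With log2 acinar share as a further term, the values were 0.28 ± 0.38 for Reg1, 0.70 ± 0.52 for Reg2, 1.39 ± 0.31 for Reg3a, 0.42 ± 0.75 for Reg3b, 0.39 ± 0.25 for Reg3d and 1.26 ± 0.78 for Reg3g (± SE, edgeR adjusted p from 0.250 to 0.832). Leaving out control 1, Traf6 KO 1 and Traf6 KO 2, which leaves 1 Traf6 KO library and so assumes that it varies like the controls, Reg3b was at -0.01 and Reg1 at 0.56. Among Q- and R-tagged libraries alone the 6 values ran from 3.51 to 4.19, with 0 members called, while the S-tagged pair, 1 of each genotype, permits no test.

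**Figure D3:**
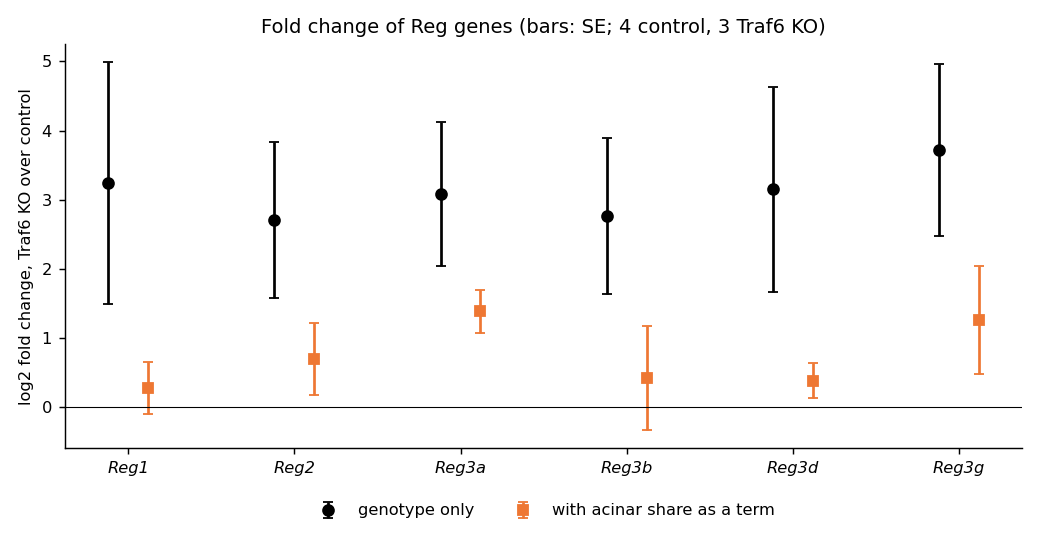
Log2 fold change of each Reg gene (vertical axis, Traf6 KO over control), from a fit with genotype only (circles) and with log2 acinar share as a further term (squares). Bars are SE from 4 control and 3 Traf6 KO libraries. The genotype-only values lie between 2.71 and 3.72 and those with the acinar term between 0.28 and 1.39.

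The second comparison set each Reg gene against the exocrine content of the same library. Reg1 stayed in near proportion to the acinar genes. For every 1000 acinar counts a library held 22.05, 19.9 and 21.4 Reg1 counts across controls 1 to 3, 14.5 for the library labelled control 4, and 22.1, 20.1 and 21.2 across Traf6 KO 1 to 3. The means were 19.4 ± 3.42 (SD, n = 4) for control and 21.1 ± 1.04 (SD, n = 3) for Traf6 KO, and the highest library was 1.53 times the lowest, while the acinar share itself ran from 0.455% to 55.9%. Reg3d varied somewhat more, its highest library being 2.00 times its lowest, at 0.344, 0.639 and 0.412 counts per 1000 acinar counts across controls 1 to 3, 0.660 for the library labelled control 4, and 0.359, 0.362 and 0.689 across Traf6 KO 1 to 3.

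Reg2 did not keep this proportion. It had 1.33 counts per 1000 acinar counts in control 1 and 1.67 and 1.04 in Traf6 KO 1 and 2, the libraries with acinar shares of 20.1% and more. In the 4 libraries with acinar shares of 3.22% and less it had 7.43 (control 2), 4.74 (control 3), 8.08 (the library labelled control 4) and 10.7 (Traf6 KO 3). No value of the first set reached the second, and the highest was 10.3 times the lowest. Reg3a, Reg3b and, by a narrower gap, Reg3d separated the same sets of libraries. Reg3d had 0.344 to 0.362 counts per 1000 acinar counts in control 1, Traf6 KO 1 and Traf6 KO 2 and 0.412 to 0.689 in the others. Reg3a had 0.0702 to 0.0849 counts per 1000 acinar counts in control 1, Traf6 KO 1 and Traf6 KO 2 and 0.231 to 0.743 in the others. Reg3b had 0.0946 to 0.184 in the acinar-rich libraries and 0.331 to 1.62 in the others. The sets and the ratio both use the acinar counts, so any gene that rises less than the acinar genes tends to separate this way. How many of all genes do so was not counted, so whether the separation is particular to Reg genes is not known. For Reg1 these sets overlapped, control 3 (21.4) lying above Traf6 KO 2 (20.1). They also overlapped for Reg3g, since Traf6 KO 1 (0.0192) lay above control 3 (0.0161), which rests on 2 counts. Genotype did not order these ratios, as each set held libraries of both genotypes and the groups overlapped for every member.

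**Figure D4:**
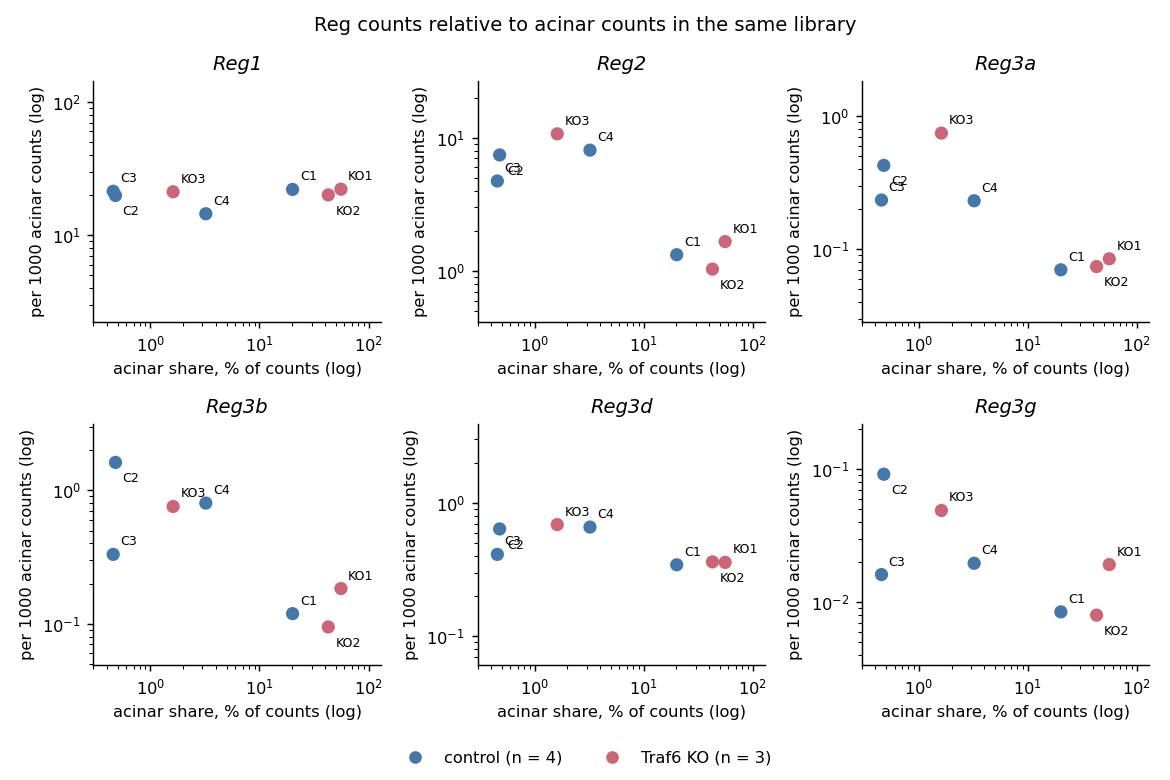
Reg counts per 1000 acinar counts (vertical, log) against the acinar share of the library in percent of counts (horizontal, log), 1 point per library and the same vertical span in all panels. Reg1 lies between 14.5 and 22.1 throughout, while Reg2 lies between 1.04 and 1.67 in C1, KO1 and KO2 and between 4.74 and 10.7 in the other libraries.

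A fit over all genes with genotype and log2 acinar share gave each gene's slope, the log2 change in CPM for each doubling of the acinar share. The slope was 1.15 ± 0.07 for Reg1 (SE, edgeR adjusted p = 8.01e-05), 1.01 ± 0.05 for Reg3d (3.54e-05), 0.70 ± 0.11 for Reg2 (0.0173) and 0.64 ± 0.06 for Reg3a (0.000987). Reg3g at 0.75 ± 0.15 (edgeR adjusted p = 0.0503) and Reg3b at 0.68 ± 0.14 (0.0691) did not pass. Thus 4 of 6 members were called upward, against 1.53% of all genes tested, and 35 of 35 acinar genes were. The acinar genes set the axis itself, so their count is no separate result. Their slopes ran from 0.78 to 1.95 with a median of 1.14, and that of Reg1 lay among them, with 14 above it and 21 below. Reg3d had 31 acinar genes above it and 4 below. Reg2, Reg3a, Reg3b and Reg3g had slopes below each of the 35 acinar genes tested. The 95% interval of the slope, not adjusted for the number of genes, ran from 0.98 to 1.32 for Reg1 and held the acinar median. Those of Reg2 (0.45 to 0.96), Reg3a (0.50 to 0.78), Reg3b (0.34 to 1.01) and Reg3g (0.41 to 1.08) did not hold it, and that of Reg3d (0.90 to 1.13) ended just below it. The call of Reg2 was lost without control 2 (adjusted p = 0.0579), Traf6 KO 1 (0.0597) or Traf6 KO 3 (0.101). Among Q- and R-tagged libraries, an alternative added once the data were known, the slopes were 1.10 for Reg1, 0.97 for Reg3d, 0.69 for Reg2, 0.68 for Reg3a, 0.61 for Reg3g and 0.54 for Reg3b, with the same number of members called.

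**Figure D5:**
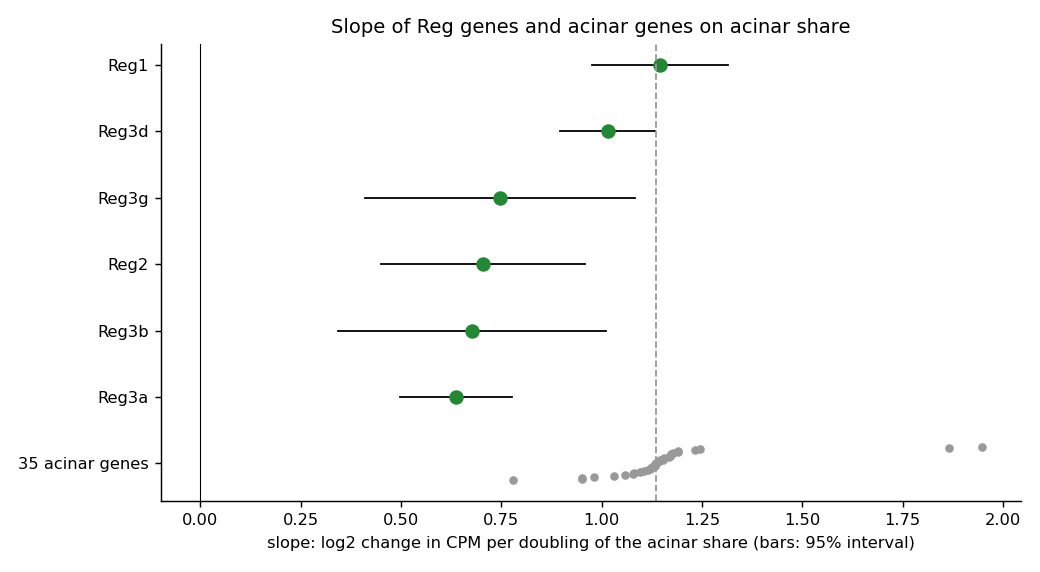
Slope on acinar share (horizontal, log2 change in CPM per doubling of the share) for the 6 Reg genes with 95% intervals, above the slopes of the 35 acinar genes tested (grey points, dashed line at their median of 1.14). Reg1 (1.15) and Reg3d (1.01) lie among the acinar genes, and Reg2, Reg3a, Reg3b and Reg3g (0.64 to 0.75) lie below them.

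Ratios within a library do not depend on scaling. The count of Reg1 per Reg2 count was 16.6 in control 1, 13.3 in Traf6 KO 1 and 19.4 in Traf6 KO 2, and 2.67, 4.51, 1.79 and 1.98 in control 2, control 3, the library labelled control 4 and Traf6 KO 3. Its log2 value had a Pearson r of 0.803 with log2 acinar share over 7 libraries (exact two-sided permutation p = 0.0536, 0.107 after Benjamini-Hochberg adjustment over 2 relations) and a Spearman rho of 0.536 (exact permutation p = 0.236, adjusted 0.444). Without the libraries farthest from the median share, Traf6 KO 1 and Traf6 KO 2, r was 0.601 over 5 libraries, so the relation did not pass and rests partly on them. Reg3b kept closer to Reg2, with 0.0897, 0.218 and 0.0698 counts per Reg2 count across controls 1 to 3, 0.0994 for the library labelled control 4, and 0.110, 0.0914 and 0.0707 across Traf6 KO 1 to 3. Its log2 ratio had a Pearson r of -0.145 with log2 acinar share (exact permutation p = 0.825, adjusted 0.825) and a Spearman rho of 0.357 (exact permutation p = 0.444, adjusted 0.444). Control 2, which had the most Reg3b per Reg2 count, set that sign, and without it r was 0.792 (exact permutation p = 0.0819). The 5 libraries tagged Q or R were given no correlation of their own.

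The Reg3 genes together made up 2.27%, 9.24% and 3.67% of all Reg counts across controls 1 to 3, 7.06% for the library labelled control 4, and 2.64%, 2.49% and 6.56% across Traf6 KO 1 to 3. Reg2 made up 4.79% to 6.81% of Reg counts in control 1, Traf6 KO 1 and Traf6 KO 2 and 17.5% to 33.3% in the other libraries. The family as a whole took from 0.0123% of all counts (control 3) to 1.37% (Traf6 KO 1).

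The genes whose levels were most like each member's were found by Pearson r of log2(CPM + 1) over the 7 libraries, which all share the differences in acinar share. This is a description only. The 5 genes most like Reg1 were all in the acinar list (Rnase1, Pnliprp1, Cuzd1, Prss2 and Cpa1, r from 0.9989 to 0.9992), and so were 4 of the 5 most like Reg3d (Klk1, Ctrl, Ctrc and Cela2a, beside the pancreatic disulphide isomerase gene Pdia2). For Reg2 they included Scara3, Spast, Igf1 and the zymogen granule gene Gp2 (r from 0.981 to 0.987), and for Reg3a they were Pdlim1, Rtkn, Gp2, Tmem267 and Clu (0.981 to 0.994). For Reg3b they included Ttyh1, Rtkn, Actn1 and Fads2 (r from 0.977 to 0.981), and for Reg3g they were Agmo, Gm16156, BC034090, Klk1b8 and Kcmf1 (0.995 to 0.998), none of which was in the acinar list. Among the members, Reg1 was most like Reg3d (r = 0.993) and Reg2 most like Reg3a (0.977) and Reg3b (0.976).

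The transcription factors of acinar cells varied with the same libraries. Of 6 tested, edgeR called 0 between genotypes (4 at an unadjusted p under 0.05, and DESeq2 called 1, Xbp1), and 4 had a called positive slope on acinar share: Rbpjl at 1.06 ± 0.05, Ptf1a at 1.00 ± 0.10, Gata4 at 0.75 ± 0.04 and Nr5a2 at 0.68 ± 0.09 (SE, edgeR adjusted p = 3.24e-05, 0.00164, 5.07e-05 and 0.00857). Ptf1a and Rbpjl encode members of the PTF1 complex. Bhlha15, a factor of secretory cells, had a slope of 0.30 (0.203) and was at 40.1 to 101 CPM in the libraries labelled control and at 358, 243 and 45.6 CPM across Traf6 KO 1 to 3. Counts for this list and those below stand beside 2589 of all 16203 genes tested at an unadjusted p under 0.05 between genotypes. DESeq2 called 3.02% of all genes higher and 1.57% lower, and edgeR called 1.53% with a positive and 0.247% with a negative slope.

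Ligands, receptors and signalling genes of the interleukin-6 and interleukin-22 families, which act on Reg3 genes through STAT3, were set beside the Reg genes. Of 31 listed genes 25 were tested, 16 of them above and 9 below 0, with a median log2 fold change of 0.09. Between genotypes edgeR called 0 of them (5 at an unadjusted p under 0.05), and DESeq2 called 2, the kinase gene Jak1 and Il22ra1. Il22ra1, the receptor chain for interleukin-22, was at 1.297, 0.0558 and 0.0293 CPM across controls 1 to 3, 0.141 CPM for the library labelled control 4 and 16.03, 14.1 and 0.324 CPM across Traf6 KO 1 to 3. It had the slope 1.05 ± 0.08 on acinar share (SE, edgeR adjusted p = 0.000193), beside those of Reg1 and Reg3d. Socs3, the feedback inhibitor that STAT3 induces, had a slope of the other sign, at -0.39 ± 0.06 (0.0194). Its level was 12.7, 44.6 and 26.1 CPM across controls 1 to 3, 18.1 CPM for the library labelled control 4 and 14.6, 11.4 and 81.3 CPM across Traf6 KO 1 to 3. Control 2 and Traf6 KO 3 were thus the highest libraries for Socs3. They were also the highest for Fos (869 and 2658 CPM) and Junb (475 and 1067 CPM), so this pattern was not particular to Socs3. How many other genes share it was not counted, and its cause was not tested. Stat3 (87.2 to 167 CPM in the libraries labelled control, 79.5 to 115 CPM in Traf6 KO), the interleukin-6 receptor genes Il6ra and Il6st and the oncostatin M receptor gene Osmr were not called by edgeR in either comparison (slopes -0.09, 0.04, 0.00 and -0.06).

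Of 28 STAT3 and acute-phase target genes 16 were tested, 9 above and 7 below 0, and edgeR called 0 between genotypes (1 at an unadjusted p under 0.05, and DESeq2 called 1, the survival gene Mcl1) and 0 on acinar share (median slope -0.13). Of 22 antimicrobial and epithelial defence genes 7 were tested, 6 above and 1 below 0, with 0 called between genotypes by edgeR or DESeq2 (1 at an unadjusted p under 0.05). In that list 2 had a called slope on acinar share, the mucosal scavenger receptor gene Dmbt1 at 1.02 ± 0.05 and the trefoil factor gene Tff2 at 1.12 ± 0.05 (SE, edgeR adjusted p = 3.54e-05 and 1.86e-05). Lcn2, an acute-phase gene of injured epithelium, had 0 to 12 counts in every library and was not tested. Among 6 genes of heparan sulphate synthesis and candidate Reg receptors edgeR called 0 between genotypes (3 at an unadjusted p under 0.05), and DESeq2 called 1, Extl3. Extl3, a proposed receptor of Reg proteins, was at 50.1, 32.7 and 33.0 CPM across controls 1 to 3, 29.2 CPM for the library labelled control 4 and 130, 111 and 30.3 CPM across Traf6 KO 1 to 3 (slope 0.22, edgeR adjusted p = 0.176), and its relative Extl1 had a called slope of 0.80 ± 0.07 (0.000858).

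Markers of other cell types were read for their own relation to the libraries, and their part in the Reg values was not tested. Of 14 ductal markers tested 2 had a called slope on acinar share, Muc1 at 0.91 ± 0.06 and Clu at 0.36 ± 0.06 (SE, edgeR adjusted p = 0.000121 and 0.0285). Krt19 (slope 0.32) and Sox9 (0.37) were not called on acinar share, and DESeq2 called both higher in Traf6 KO where edgeR called 0 of the 14 (9 at an unadjusted p under 0.05). The direction was not uniform, as 11 of the 14 had a log2 fold change above 0 and 3 below. In 3 of them every Traf6 KO library lay under every control (8.68% of all genes). Ductal markers took 0.119% to 0.123% of counts in the libraries labelled control and 0.106% to 0.182% in Traf6 KO. Macrophage markers took 0.0217% to 0.0682% and 0.0107% to 0.0245%, lymphocyte markers 0.00119% to 0.00941% and 0.00253% to 0.0606%, endothelial markers 0.0416% to 0.0596% and 0.0175% to 0.0515%, and stellate and fibroblast markers 0.0162% to 0.0197% and 0.0107% to 0.0261%. No tested gene of these 4 lists and of the 16 islet endocrine markers had a called slope. Ins1 and Ins2, the insulin genes, had slopes of 0.04 and 0.04 (edgeR adjusted p = 0.816 and 0.720). Between genotypes, 16 of 16 endocrine markers were below 0 and in 6 the Traf6 KO libraries all lay under the controls (8.68% of all genes). EdgeR called 0 of them (2 at an unadjusted p under 0.05), and DESeq2 called 4 lower, Ins1 (log2 fold change -1.48 by edgeR), Ins2, Ucn3 and the granin gene Chga.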

How the data were processed

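RNA sequencing of isolated islets gave 1 table with 7 libraries. The values are raw gene counts as the authors deposited them, 100% of them whole and none normalized. Per the submitters' processing notes STAR 2.6.1b, RSEM 1.3.1, FastQC and GRCm38 were used. What each did is not stated, and RSEM estimates may have been rounded. Annotation and strand setting: not given in the sources used here. Per the labels' protocols a kit sold for tissue DNA served for extraction. Of the 55487 identifiers 55141 matched GENCODE M21 on GRCm38, whose coordinates and transcripts were used. Promoter sequences came from RefSeq (GRCm38.p6).

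Counts were tested in R 4.3.3 with edgeR 4.0.16 (TMM, filterByExpr, minimum count 10, minimum total 15, quasi-likelihood F test, two-sided), adjusted by Benjamini-Hochberg over all 16203 genes tested at 0.05. All 6 members passed the filter. TMM factors ran from 0.500 (Traf6 KO 1) to 1.35 (Traf6 KO 3), which raises CPM of acinar-rich libraries. SE was derived from the estimate and F. Correlations used exact permutation over 5040 pairings. The closest pair of libraries, controls 2 and 3, still differed beyond sampling noise (chi-square per gene 21.8). Alternatives used DESeq2 1.42.0 and limma 3.58.1. The fits were tested on simulated counts with the same dispersion for every gene, which checks the code and not their performance on these data. The members and gene lists were chosen with earlier results of these data known. Named were the members, Reg4, Traf6, genes fixed by name, the neighbours within 500 kb, the 5 genes most like each member and up to 3 members of each list with the smallest p. Of the genes most like Reg2 and Reg3b, 1 each is not reported here. Rbpjl, Gata4, Muc1, Chga, Fos, Junb and the E-box spacing were chosen after values were seen.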

Additional observations from a re-analysis of the deposited data

Results flagged for a closer look

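Each of these values lay farther from the other controls than a Dixon test at 95% allows in a group of 4, with 27 measures tested and chance nominally giving about 1 in 20. That rate assumes normal, independent values. These measures were not logged, span a wide range and depend on each other, so the flags partly reflect the scale used. Control 1 stood apart for Reg1 at 4648 CPM (the other libraries labelled control reached 365 CPM), for all Reg genes at 0.481% of its counts, for the acinar share at 20.1% and for Reg3d at 0.259 counts per Reg2 count. Control 2 stood apart for Reg3g, with 0.0913 counts per 1000 acinar counts and 0.304% of all Reg counts, both from 12 Reg3g counts.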

How the results depend on the processing

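Over 19 alternatives of the genotype comparison the log2 fold changes stayed above 0 for Reg1 (0.28 to 6.20), Reg2, Reg3a, Reg3d and Reg3g, and Reg3b turned to -0.005097 without control 1, Traf6 KO 1 and Traf6 KO 2. Library totals alone moved the median of all genes to -0.4565, and the members then ran from 1.81 to 2.79. Over all genes edgeR called 0, with 2589 at an unadjusted p under 0.05. Limma-voom called 0, DESeq2 744, the acinar covariate 3 and the fit without control 1, Traf6 KO 1 and Traf6 KO 2 67. Leaving out 1 library called 0 to 701 genes (701 without Traf6 KO 3) and 0 members. With the replicate number as a block 6 genes were called, among them 1 member, Reg3b (3.06 ± 0.13, SE, edgeR adjusted p = 0.00487). Deviations of same-numbered libraries correlated at 0.597, -0.177 and 0.454, and not every library was most like its own number. Differences in acinar share enter these deviations, so they cannot decide whether the numbers pair the animals, which the labels do not state.

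For slopes on acinar share, 288 genes were called, and 161 to 312 without 1 library. DESeq2 called 911, no low-count filter 527, the acinar share as the only term 643 and the Q- and R-tagged libraries 177. Members called ranged from 3 to 6. All slopes stayed above 0 in the 17 alternatives. The relation of Reg3b per Reg2 to acinar share ran from -0.445 to 0.792 without 1 library and turned positive without control 2. That of Reg1 per Reg2 ran from 0.739 to 0.878. The causes of these shifts were not tested. Depth limits Reg3g, which had 2 counts in control 3.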
